A study of Mus musculus with 24 samples.

Results

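The prefrontal cortex (PFC) of passive coping strategy (PS) mice was compared with that of unstressed control mice after a saline injection. The comparison rests on 8 libraries, 4 PS and 4 control, out of 24 PFC libraries, and all 14074 genes of the deposited expression table were tested. The libraries were chosen by their labels, phenotype and injection, and by no measured value. All mice were C57BL/6 males, and each library came from 1 mouse. PS mice had gone through 30 days of chronic social defeat by aggressive CD1 males and were separated from active coping strategy (AS) mice by clustering of their behaviour during contact with the aggressor. Control mice saw no aggressor and were housed singly before tissue was taken, so that the comparison joins defeat, housing history and the selection of the passive animals. The saline mice had an injection without drug, and tissue was taken 6 h after it. The other groups were AS mice with saline, and control, PS and AS mice given dexamethasone (DEX), a synthetic glucocorticoid, at 2 mg/kg.

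The PFC takes part in weighing threats and in choosing how to respond to them. Repeated social defeat is known to act on it through glucocorticoid signalling, through synapses and dendritic spines, and through glial and immune cells. The comparison of PS and control mice without DEX asks what the PFC transcriptome of mice with a passive response looks like once the stress has ended, before any challenge of the glucocorticoid receptor. Levels below are normalized read counts: reads over the exons of a gene divided by the size factor of the library, named for the mouse number.

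Read totals ran from 21121869 to 24753489 in the control libraries and from 21493398 to 59439645 in the PS libraries, PS 28 being the deepest. Fkbp5, which glucocorticoids induce, averaged 796 in control saline and 881 in PS saline mice against 3820 and 3531 in the DEX groups, which matches the injection labels. Markers of cortical excitatory neurons, astrocytes, oligodendrocytes and microglia were present in every library. Libraries stood apart in ways the labels do not give. In olfactory bulb markers, the summed level of 7 genes was 12957 in control 117 and 5113 in PS 2, against 1763 to 2018 in the other 6 libraries. In genes linked to ribosomal RNA (rRNA), the summed level of 7 genes was 728359 in PS 2, 526380.0 in PS 62, 340841 in PS 28 and 295145 in PS 68, against 231618 to 268083 in the controls. The number of calls and the values that moved most with these libraries are given below with and without them. In bulk tissue, fewer cells of a type and less RNA per cell cannot be told apart.

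In PS mice 101 genes rose and 112 fell at an adjusted p under 0.1, 213 of 14074 genes or 1.51% (limma, Benjamini-Hochberg adjustment over all genes, used throughout). The rises made up 0.718% and the falls 0.796% of the genes tested. In 204 of the 213 the PS and the control libraries did not overlap, as in 11.3% of all genes. Most changes in protein-coding genes were small: 148 were called, 65 higher and 83 lower, with a median absolute log2 fold change of 0.30, and 133 of them lay under 0.5. The calls were uneven over kinds of gene. Of 401 pseudogenes 19 rose and 27 fell, of 472 small RNA genes 8 rose and none fell, and of 853 long noncoding RNAs 7 rose and 2 fell. Changes beyond 2-fold were found in 15 genes that rose and 31 that fell.

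**Figure D1:**
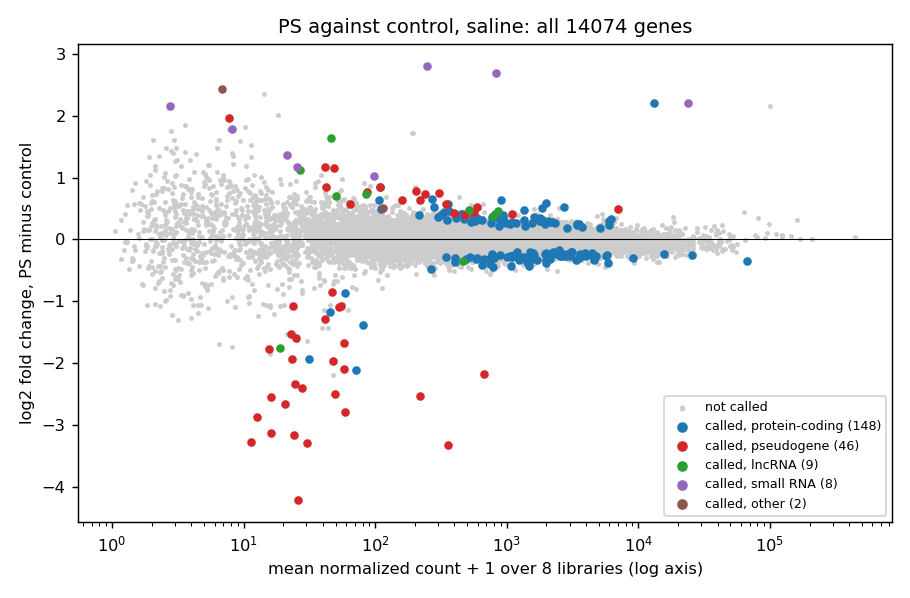
Mean normalized count over the 8 saline libraries (log axis) against the log2 fold change of PS over control, 1 point per gene, with called genes coloured by kind. Of the 148 called protein-coding genes 133 lie within 0.5 of 0, and the farthest falls are pseudogenes.

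On the recovered reads edgeR called 212 genes and DESeq2 431 (3.13% of the genes it tested). The number of limma calls moved with single libraries. It was 57 without PS 2, 96 without PS 28, 121 without PS 62, 90 without control 106, 94 without control 107 and 135 without control 117, and it was 348 without AS saline 44, which enters only the estimate of spread. Without both PS 2 and PS 62, the libraries high in rRNA-linked genes, 23 genes were called, 3 higher and 20 lower, all among the 213. Without PS 2 and control 117, the libraries high in olfactory bulb markers, 40 were called, 16 higher and 24 lower, again all among the 213. Both of these settings were chosen after the data were seen, and they compare 2 with 4 and 3 with 3 libraries.

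Among the better measured genes, which averaged 100 or more normalized counts and showed no overlap between the groups, the 12 largest rises were led by Lars2, a mitochondrial leucyl-tRNA synthetase gene whose transcripts also hold sequence related to rRNA. Lars2 (mm10, chr9:123366927-123462666) read 3006, 4531, 2719 and 3239 in controls 106, 107, 109 and 117. It read 51003 in PS 2, 7637 in PS 28, 28803 in PS 62 and 4808 in PS 68. All PS values were higher, but the spread among the PS mice exceeded 10-fold, and the order of the PS libraries was that of the summed rRNA-linked genes, to which Lars2 belongs. The log2 fold change was 2.2 (SE 0.51, adjusted p = 0.0407), and without PS 2 and PS 62 Lars2 was not called.

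Ccl28, a chemokine of epithelial surfaces, rose at a low level. It read 97.2, 70.1, 86 and 57.5 in the controls (106, 107, 109 and 117, the order kept below) and 150.3, 128, 124 and 152 in PS 2, 28, 62 and 68. The groups did not overlap, as the choice of these genes required, and the log2 fold change was 0.85 (SE 0.16, adjusted p = 0.0104). It lies on chr13 beside Tmem267, a gene for a membrane protein, which rose from 208 ± 33.2 to 330.4 ± 69 (SD, n = 4 each; log2 fold change 0.65). Exons of Tmem267 overlap those of Gm48265 on the opposite strand. Ccl28 was called in all 24 fits that left out 1 library.

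Lpl, lipoprotein lipase, which releases fatty acids from lipoproteins and is made in brain by microglia and neurons, gave one of the tightest rises. It read 252, 304, 292 and 292 in the controls and 427, 459.9, 407 and 408 in the PS mice. The log2 fold change was 0.58 (SE 0.12, adjusted p = 0.0203). Lpl was called in all 24 fits that left out 1 library.

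4 of the 12 rises were genes of the cytosolic ribosome. Rpl39, a small protein of the large subunit, read 724, 662, 623 and 835 in the controls and 1042, 1078, 1333 and 972 in the PS mice, with a log2 fold change of 0.64 (SE 0.14, adjusted p = 0.0326). Rps27, of the small subunit, read 1577, 1400.5, 1565 and 1799.7 in the controls and 2236, 2495, 2684 and 2108 in the PS mice (0.59, SE 0.15, adjusted p = 0.0564). Rps27a, which encodes a ribosomal protein fused to ubiquitin, rose from 2231 ± 267 to 3213 ± 224, and Rplp2, of the ribosomal stalk, from 1541 ± 155 to 2184 ± 134 (SD, n = 4). In Rpl39, Rps27 and Rplp2 control 117 was the highest control and PS 68 the lowest PS mouse. Exons of Snora52, a small nucleolar RNA, lie within Rplp2 on the same strand, so reads there cannot be told apart.

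The remaining rises were in genes of RNA metabolism and others. Lsm5, of the ring that binds the ends of RNAs in splicing and decay, averaged 82.3 ± 7.69 in controls and 129 ± 20.1 in PS mice. Polr2k, a small subunit shared by the nuclear RNA polymerases, averaged 229.6 ± 34.7 and 329 ± 34.2, and Sntg2, a syntrophin that holds membrane proteins in place, 91.7 ± 13.4 and 129 ± 18.8. The transcript 2900064F13Rik averaged 93.6 ± 7.83 and 134 ± 19.9 (SD, n = 4 for each). In Polr2k the groups were nearly in contact, with 279 in control 117 and 282 in PS 68.

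The 12 largest falls were smaller in size than the rises, and most of them were steadier between PS mice than most of the rises. Bicra, a subunit of a chromatin remodelling complex of the SWI/SNF family, had the smallest adjusted p of them. Bicra (chr7:15970672-16047921) read 926, 905, 837 and 969 in the controls and 692, 686, 637 and 664 in the PS mice. The gap between the groups was wider than the range within either, the log2 fold change was -0.44 (SE 0.07, adjusted p = 0.00143), and Bicra alone of the 24 genes was still called without PS 2 and PS 62. In that setting, of 2 against 4 libraries, the log2 fold change was 0.61 in Lpl, 0.87 in Ccl28, -0.55 in Naa80 and -0.40 in Ache, as large as with all libraries or larger. It was smaller in Rpl39 (0.54), Limk1 (-0.34) and above all Lars2 (0.87). Exons of Bicra overlap those of Gm38948 on the opposite strand.

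Ppard, the nuclear receptor that responds to fatty acids, read 752, 738, 707 and 756 in the controls and 547, 611, 527 and 546 in the PS mice (log2 fold change -0.41, SE 0.07, adjusted p = 0.00246). Hr, a corepressor of nuclear receptors, read 1343, 1168, 1294 and 1096 against 747, 1005, 958 and 930.3, so that its lowest control stood close to PS 28. Proser1, a proline and serine rich protein, was lower in all PS mice by a similar amount, from 842 ± 22.2 to 642 ± 24.9 (SD, n = 4; -0.39, adjusted p = 0.00771). Ppard and Proser1 were called in all 24 fits that left out 1 library, as was Bicra.

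Other falls were in neuronal signalling and in the cytoskeleton. Limk1, the kinase that inactivates cofilin and so steadies actin filaments of dendritic spines, read 1616, 1679.6, 1666 and 1789 in the controls and 1044, 1276, 1332 and 1383 in the PS mice. PS 2 was the lowest, and the log2 fold change was -0.43 (SE 0.09, adjusted p = 0.019). Without PS 2 alone, 7 of the 24 genes were still called. Limk1, Hr, Kctd21, Ksr1, Ache and Fam57b were among those lost, as were Lars2, Rps27, Rps27a and Rplp2. Naa80, which acetylates the actin N-terminus, fell from 305 ± 17.3 to 219.9 ± 17.3, and its exons overlap those of Hyal1 and Hyal3 on the same strand. Ksr1, a scaffold of the Ras to MAP kinase path, fell from 1596 ± 177 to 1231 ± 73.2, and Kctd21, an adaptor of cullin ubiquitin ligases, from 452 ± 33.9 to 349.6 ± 34.5 (SD, n = 4).

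Ache, the enzyme that breaks down acetylcholine, read 1636, 1665, 1504 and 1838 in the controls and 1255, 1223, 1361 and 1291 in the PS mice (log2 fold change -0.37, SE 0.09, adjusted p = 0.0507). Fam57b, linked to ceramide synthesis, fell from 2243 ± 286 to 1714 ± 45.9 (SD, n = 4), the controls being the more spread. Exons of Fam57b overlap those of the abundant Aldoa, and those of Ache overlap Gm42456, on the opposite strand. Opposite-strand exons also overlap Rps27a (Clhc1), Ksr1 (Gm11201) and, among genes described below, Syn1 (Araf), Iqsec1 (Gm44123) and Gm6793 (Terf2ip). The strand setting of the counting was not given in the sources used here.

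**Figure D2:**
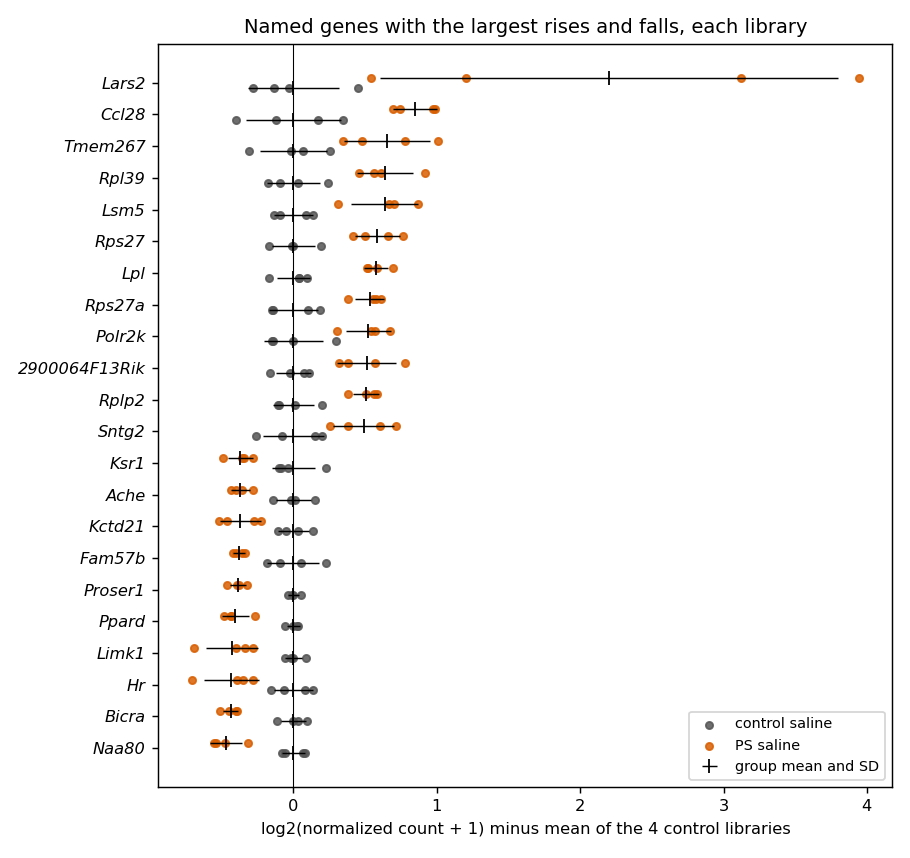
Log2(normalized count + 1) of the named genes with the largest changes in each of the 8 saline libraries, relative to the mean of the 4 control libraries, with PS and control mice in different colours and bars for the group mean and SD. Lars2 spreads the most between PS mice. Most of the falls are narrow in PS mice, Hr and Limk1 less so, and some rises such as Lpl and Rplp2 are narrow as well.

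The largest changes of all were in copies of other genes. Of the 213 called genes 50 were such copies, 46 annotated as pseudogenes and 4 as protein-coding, of which 19 were higher and 31 lower. For 49 the closest protein-coding gene was found, with an identity of 96.6% to 100% and a median of 99.6% over the best aligned stretch. That stretch was a part of some copies (262 of 714 bases in Rpl9-ps6) and the whole of others (510 bases in Gm13339). Reads from stretches in which a copy and its source have the same letters cannot be told apart. The pairs below are each 75 bases of the coding sequence of the source and the matching bases of the copy. They run 5′ to 3′ on the coding strand (transcripts of GENCODE vM21, mm10). Each stretch is the one without gaps that held the most differences. Outside the stretches gaps also separate some pairs, with 10 gap bases in 315 aligned for Rpl36-ps2 and 18 in 1069 for Gm6793. Gm9800 aligned over 146 bases of a coding sequence of 435. Capitals mark the differing bases, and positions count from 1 at the first base of the coding sequence.
Rps27: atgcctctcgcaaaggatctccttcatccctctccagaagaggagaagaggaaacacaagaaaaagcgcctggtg
Rps27rt: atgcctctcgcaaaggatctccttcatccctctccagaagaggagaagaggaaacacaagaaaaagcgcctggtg
Rps12: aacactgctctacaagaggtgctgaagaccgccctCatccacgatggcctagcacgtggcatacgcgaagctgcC
Rps12-ps9: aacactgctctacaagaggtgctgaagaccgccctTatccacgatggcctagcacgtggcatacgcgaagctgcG
Rpl36: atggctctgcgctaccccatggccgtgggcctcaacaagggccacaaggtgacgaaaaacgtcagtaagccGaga
Rpl36-ps2: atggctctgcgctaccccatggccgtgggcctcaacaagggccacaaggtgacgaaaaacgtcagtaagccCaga
mt-Nd2: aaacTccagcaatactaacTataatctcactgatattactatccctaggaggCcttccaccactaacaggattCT
Gm13339: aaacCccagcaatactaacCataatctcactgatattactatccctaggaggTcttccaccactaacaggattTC
Hnrnpa3: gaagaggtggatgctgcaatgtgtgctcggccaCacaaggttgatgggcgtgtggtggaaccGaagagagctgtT
Gm6793: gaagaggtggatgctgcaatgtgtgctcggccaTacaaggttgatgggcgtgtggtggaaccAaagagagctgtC
Ptma: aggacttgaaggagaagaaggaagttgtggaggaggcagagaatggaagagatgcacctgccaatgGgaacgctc
Gm9800: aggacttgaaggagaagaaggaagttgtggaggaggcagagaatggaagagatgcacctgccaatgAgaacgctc

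The coding sequence of Rps27rt was the same as that of Rps27 over all 252 bases. Rps12-ps9 differed from Rps12 in 2 of 384 aligned coding bases, C126T and C165G, Rpl36-ps2 carried G72C in the stretch shown, and Gm9800 carried G356A. Gm13339, on chr2, is a nuclear copy of mitochondrial mt-Nd2 and differed in the stretch shown by T711C, T726C, C759T, C780T and T781C. Gm6793 differed from Hnrnpa3 there by C292T, G321A and T333C.

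The 31 lower copies were mostly copies of ribosomal protein genes, 25 of 31, and 2 were copies of mitochondrial genes, Gm13339 and Gm13340. Sources were sought for called copies only, so the share of ribosomal sources among all measured pseudogenes was not determined. Rps12-ps9 (chr8:123206623-123207021) read 40.5, 34.4, 45.3 and 69.3 in the controls and 0, 2.34, 1.28 and 4.2 in the PS mice, a log2 fold change of -4.22 (SE 0.48, adjusted p = 2.35e-05) on the log2(count + 1) scale. Its source Rps12 averaged 2417 in controls and 2711 in PS mice and was not called. Gm13339 (chr2:22590024-22590533) read 355, 519, 1026 and 723 against 61.2, 57.1, 48.6 and 74.6 (-3.33, SE 0.43, adjusted p = 0.000125). In both copies every PS mouse lay far below every control.

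Rps27rt read 78.3, 76.2, 206 and 103 in the controls and 34.4, 15.4, 23 and 26.3 in the PS mice (log2 fold change -2.11, SE 0.32, adjusted p = 0.000888), while Rps27, of the same coding sequence, was higher in all PS mice. Rps27rt held 6.74% of the reads of the pair in controls and 1.05% in PS mice. Rps27 was the one called gene among the 45 source genes. In 27 of the 31 lower copies the source had a log2 fold change above 0, where 50.6% of all genes did. Most of these sources were ribosomal protein genes, and 72 of all 81 cytosolic ribosomal protein genes measured lay above 0. Rpl17, Rpl19 and Rpl35a were each counted for several lower copies. The median share of a lower copy in the reads of copy and source together was 1.46% in controls and 0.290% in PS mice. Rpl19-ps7, Rpl36-ps2 and Rpl17-ps8 had log2 fold changes of -3.30, -3.28 and -3.16, with every PS mouse at 5.26 or less. Whether the copies themselves are transcribed, or hold reads of their sources, was not tested.

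Of the 19 higher copies 18 had a source, and 3 of these came from ribosomal protein genes. Gm9800, a copy of the prothymosin gene Ptma, read 140.4, 136, 154 and 173 in the controls and 264, 257, 271 and 242 in the PS mice (log2 fold change 0.78, SE 0.14, adjusted p = 0.00697). Gm6793, a copy of the RNA-binding protein gene Hnrnpa3, read 86.4, 68.9, 84.9 and 66.9 against 150.3, 133, 139 and 129 (0.85, SE 0.14, adjusted p = 0.00357). Ptma averaged 5005 and 5339 and Hnrnpa3 averaged 6528 and 7083, neither of them called. The median share of a higher copy in its pair was 3.90% in controls and 5.58% in PS mice.

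Most cytosolic ribosomal protein genes had values above 0, with few calls. Of 81 measured, 5 rose (Rpl39, Rps27, Rps27a, Rplp2 and Rpl22, the last named after its values were seen) and 1, Rps27rt, fell, against 0.718% and 0.796% of all genes. The median log2 fold change of the 81 was 0.18 beside 0.00 over all genes, with 72 above 0 (50.6% of all genes were) and 17 in which all PS mice lay above all controls (5.15% of all genes). By library, the mean log2 difference of its genes from the control mean was -0.11 in controls 107 and 109, 0.03 in control 106 and 0.19 in control 117, against 0.17, 0.16, 0.27 and 0.05 in PS 2, 28, 62 and 68, so that the groups overlapped through control 117. The 5 rises became none without PS 62, without control 107 or without PS 2 and PS 62, 1 without control 106, control 109, PS 2 or PS 28, and 12 after correction for GC content and transcript length, while the median ran from 0.11 to 0.18 in these settings. Among 42 ribosomal protein pseudogenes 1 rose and 13 fell, with a median of -0.57, and this sign turned with the filter: over those with a mean of at least 100 the median was 0.35, and over those with at least 10 reads in every library 0.09.

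None of 52 translation factor genes was called, with a median of 0.01. Of 35 proteasome subunits Psmd10 rose, from 309 ± 8.07 to 387 ± 38.6 (SD, n = 4; log2 fold change 0.32), in 13 of the 24 fits that left out 1 library, with a list median of 0.08 and 27 above 0. Of 82 nuclear genes of oxidative phosphorylation (median 0.05), 77 mitochondrial ribosomal proteins (-0.01), 13 mitochondrially encoded proteins (0.03) and 24 heat shock proteins and chaperones (0.04) none was called.

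The other large rises were in short and rRNA-linked transcripts. Of 7 measured rRNA-linked genes 3 rose, Lars2, Gm24187 and Gm24270, and the median of the list was 2.16. Gm24187 and Gm24270 are small RNA genes, and Gm24270 read 99.9, 203, 98.4 and 179.6 in the controls and 3449, 387, 1889 and 256 in the PS mice. The order of the PS mice was again PS 2, 62, 28 and 68, and without PS 2 and PS 62 the list median was 0.74. None of the 3 was called without PS 2 or without PS 62 alone. Gm42418, the most abundant member outside the mitochondrial genes, read 375806 in PS 2 and 29438 in PS 68 against 17423 to 36591 in the controls and was not called. The libraries were made from poly(A) RNA, and how much rRNA each one held was not tested. Gm37376, which lies within Malat1 on the opposite strand, read 1.35, 1.23, 2.26 and 0 in the controls and 15.3, 9.36, 6.4 and 10.5 in the PS mice (2.43 on the log2(count + 1) scale, adjusted p = 0.0834), so that it rests on few reads.

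Genes of the synapse gave few calls. The regulators of small GTPases, which turn Rac, Ras and Arf proteins on and off in spines and axons, had the lowest median of them, -0.11. Of 98 measured, 2 fell and none rose, against 0.796% and 0.718% of all genes. In 87 the value lay below 0, where 50.6% of all genes lay above 0. In 15 all PS mice were below all controls, beside 6.12% of all genes. Iqsec1, an exchange factor of Arf proteins at excitatory synapses, read 10465, 9743, 10554 and 9191 in the controls and 7632, 8432, 8150.5 and 8164 in the PS mice (-0.30, SE 0.08, adjusted p = 0.0941). Rap1gap, which turns off the GTPase Rap, read 6246, 6184, 6205 and 6248 against 4809, 4832, 5577 and 5497 (-0.27, SE 0.06, adjusted p = 0.0405). The mean log2 score of the list was -0.12 to -0.09 in the PS mice and -0.07 to 0.05 in the controls. Neither gene was called without control 106, PS 2 or PS 28 or after GC correction, and Iqsec1 was called in 9 of the 24 fits that left out 1 library. After correction for GC content and transcript length the list median was -0.05.

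Of 39 genes of synaptic vesicle release only Syn1 was called. Syn1, synapsin I, which ties vesicles to the cytoskeleton, read 30399, 28368, 26794 and 26518 in the controls and 23068, 23064, 23179 and 24595 in the PS mice (-0.25, SE 0.07, adjusted p = 0.068). The median of the list was -0.08. The median of 70 potassium channel subunits was also -0.08. Of 50 genes of the glutamatergic synapse and 35 of the GABAergic synapse none was called, and both medians were -0.06. For Slc17a7, the vesicular glutamate transporter, the log2 fold change was -0.15 (adjusted p = 0.354), and for Slc12a5, the neuronal chloride exporter, -0.07 (adjusted p = 0.785).

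In inhibitory neurons Vip was the one call, made in 18 of the 24 fits that left out 1 library. Vip, the peptide of interneurons that inhibit other interneurons, read 1434, 1490.3, 1511 and 1203 in the controls and 2037, 1777, 1639 and 1804 in the PS mice, with no overlap (log2 fold change 0.37, SE 0.10, adjusted p = 0.0735). The other 14 of 15 interneuron peptides and calcium-binding proteins, and the other 14 of 15 GABAergic neuron markers, were not called, and the marker list had a median of -0.15, which was 0.03 without control 117. Control 117, high in olfactory bulb markers, was also the highest library in GABAergic markers, with a score of 0.50 against -0.24 to 0.05 in the rest, and was the lowest control for Vip.

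Of 25 genes of the monoamine system, 13 of neurotrophin signalling, 44 chromatin modifiers and 40 clustered protocadherins none was called. The medians of chromatin modifiers and of protocadherins were -0.10 and -0.09, and in 12 and 4 of their genes all PS mice were below all controls, beside 6.12% of all genes.

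Genes of the stress axis and of neuronal activity gave no call. None of 12 genes of the glucocorticoid receptor and the hypothalamic-pituitary-adrenal axis and none of 24 glucocorticoid targets was called, with medians of -0.02 and 0.00. Fkbp5, the chaperone that dampens the receptor, gave 0.14 (adjusted p = 0.598) and Tsc22d3, which encodes the anti-inflammatory protein GILZ, -0.13 (adjusted p = 0.556). Of 40 immediate early genes none was called, with a median of -0.10 and 26 below 0. Vgf, a secreted neuropeptide precursor, averaged 11132 in controls and 9188 in PS mice (-0.27, adjusted p = 0.148), and was called with DESeq2 alone (-0.28, adjusted p = 0.0784). None of 21 clock genes was called (median -0.01).

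**Figure D3:**
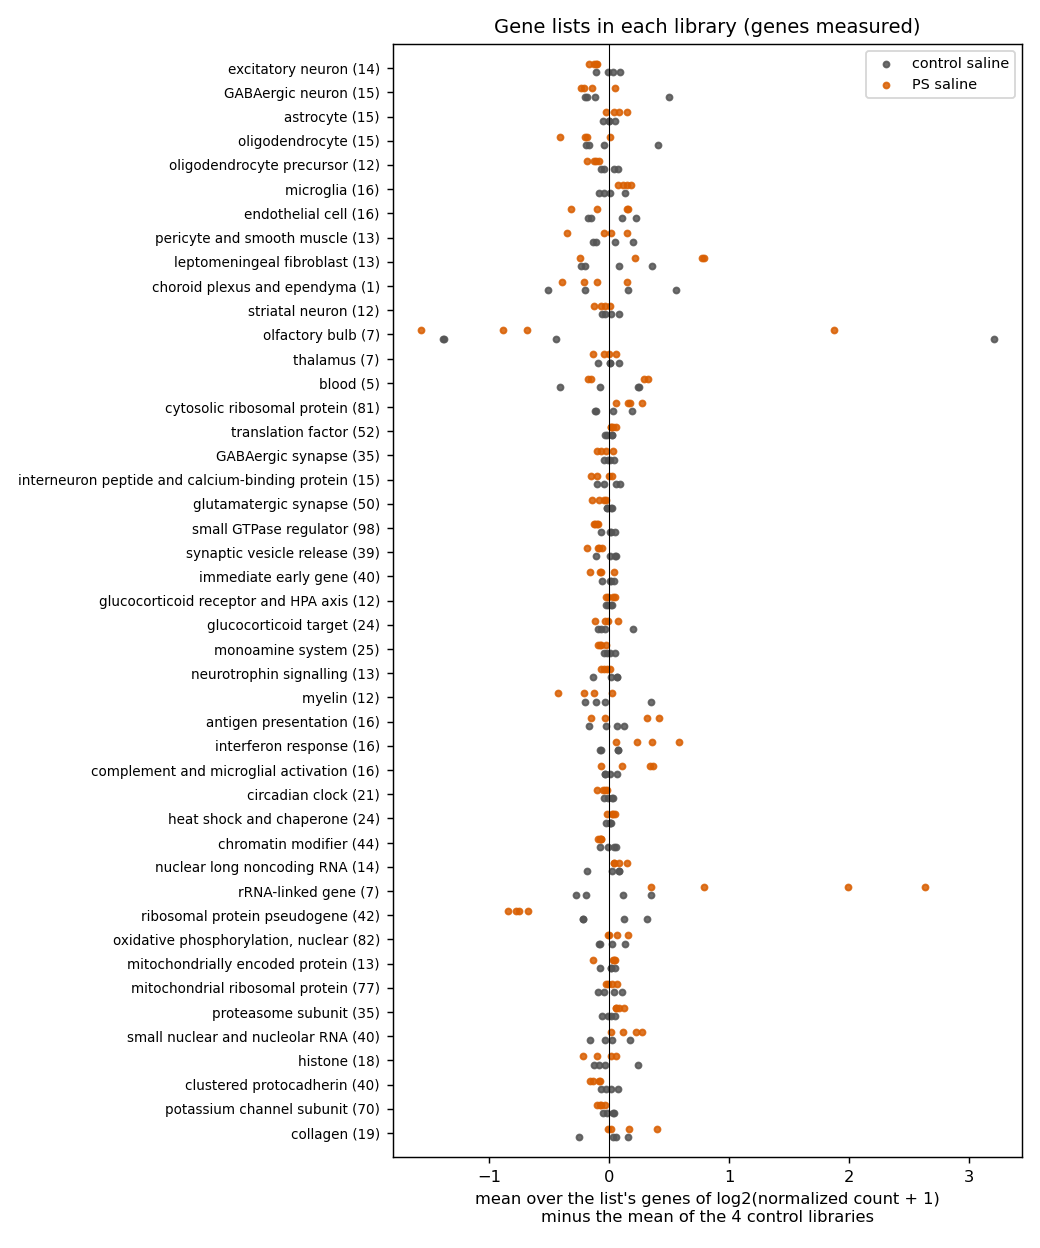
Mean log2(normalized count + 1) over the genes of each list, relative to the mean of the 4 control libraries, 1 point per saline library, with the number of measured genes beside each list. PS 2 and PS 62 stand out in rRNA-linked genes (2.63 and 1.99) and control 117 and PS 2 in olfactory bulb markers (3.21 and 1.88), while the small GTPase regulators lie between -0.12 and -0.09 in all PS libraries.

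Most genes of the microglial and immune lists had values above 0, with few calls. Of 16 genes of complement and microglial activation Lpl rose, and the list median was 0.15. Of 16 microglial markers none was called, and 15 lay above 0 (50.6% of all genes) with a median of 0.15. In 6 of them all PS mice were above all controls, beside 5.15% of all genes. Of 16 interferon response genes none was called (median 0.30, 15 above 0), nor of 16 antigen presentation genes (0.10). These lists moved with the libraries. The interferon score was 0.58 in PS 2, 0.36 in PS 62, 0.24 in PS 68 and 0.06 in PS 28, against -0.08 to 0.07 in the controls. The score of complement and microglial activation was 0.36, 0.34, -0.07 and 0.11 in the same order, against -0.04 to 0.06. PS 2 and PS 62 were also high in 13 leptomeningeal fibroblast markers, with scores of 0.79 and 0.77 against -0.24 to 0.36 in the other 6 libraries, and the median of that list was 0.42. Without PS 2 and PS 62 the medians were 0.14 for interferon response, 0.01 for complement and microglial activation, 0.12 for microglial markers and 0.02 for leptomeningeal markers. Whether meningeal tissue in PS 2 and PS 62 has a part in the immune values was not tested.

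Markers of oligodendrocytes, astrocytes, endothelial cells and excitatory neurons held no call. The oligodendrocyte median was -0.16 with all 15 below 0, but -0.05 without control 117, and that of 12 myelin genes was -0.15 and -0.04. The oligodendrocyte score was 0.41 in control 117 and -0.41 in PS 2 against -0.21 to 0.00 in the other 6 libraries. Mbp, myelin basic protein, averaged 15645 in controls and 12076 in PS mice (-0.37, adjusted p = 0.369). The excitatory marker median was -0.10, that of astrocytes 0.06 and that of endothelial cells -0.02. Of 12 choroid plexus and ependyma markers 1 was in the table, at 18 or less on average in each group. None of 13 pericyte and smooth muscle, 12 striatal, 7 thalamic, 5 blood and 12 oligodendrocyte precursor markers was called, nor of the myelin genes, 19 collagens, 18 histones, 14 nuclear long noncoding RNAs and 40 small nuclear and nucleolar RNAs.

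The GC content of a transcript went with the direction of change. Called protein-coding genes that rose had a median GC content of 43.4%, those that fell 57.4%, and all protein-coding genes 50%. Over 11513 protein-coding genes averaging 100 or more, in 5 equal bins of GC content, the median log2 fold change was 0.07, 0.02, -0.01, -0.05 and -0.09 from the lowest to the highest bin. The lowest bin held 37 rises and 1 fall and the highest 2 rises and 55 falls. By library, the median log2 deviation of the highest bin from the control mean was -0.11, -0.06, -0.07 and -0.11 in PS 2, 28, 62 and 68, against 0.07, -0.01, -0.07 and 0.03 in the controls, so control 109 lay among the PS mice.

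**Figure D4:**
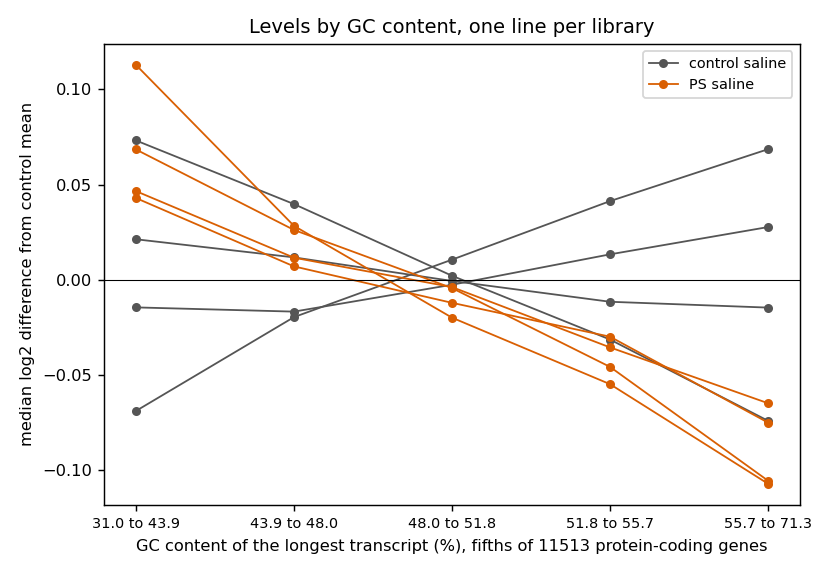
Median log2 deviation from the control mean of protein-coding genes in 5 equal bins of GC content, 1 line per saline library, with PS and control libraries in different colours. The PS libraries fall from the lowest to the highest bin, control 106 rises, and control 109 falls like the PS libraries.

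After each library was corrected for the GC content of the transcripts, a setting added after the data were seen, 105 genes were called, 0.746% of those tested, 55 higher and 50 lower. Of these, 91 were among the 213, 40 of them protein-coding and 39 pseudogenes. With transcript length corrected as well, 258 genes were called, 106 higher and 152 lower, 117 of them among the 213. Of the 24 named genes 12 were still called after GC correction alone, among them Lars2, Ccl28, Lpl, Rpl39, Rps27, Bicra, Ppard and Proser1. Among those no longer called after GC correction alone were Lsm5, Rps27a, Polr2k, Sntg2, 2900064F13Rik, Hr, Limk1, Fam57b, Ache and Ksr1. Their log2 fold changes stayed in the same direction, at 0.49 in Rps27a, 0.43 in Polr2k, 0.48 in Sntg2, -0.35 in Limk1 and -0.29 in Ache. With both corrections 17 of the 24 were called, among them Rps27a, Sntg2, Limk1 and Fam57b.

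PS mice were also compared with AS mice given saline, which went through the same defeat and differ in coping. No gene was called (0%, limma), nor with edgeR, while 671 genes (4.77%) had an unadjusted p under 0.05 and DESeq2 called 11 (0.0782%). This comparison shares the PS libraries with the one above. For several genes the AS mean lay between the other groups. Bicra averaged 860.5 ± 89 in AS mice beside 909 ± 54.7 in controls and 669.8 ± 24.8 in PS mice (PS minus AS -0.36, adjusted p = 0.212), and Ccl28 averaged 96.6 ± 19.8 beside 77.7 ± 17.5 and 139 ± 14.7 (0.54, adjusted p = 0.927). For Lpl the AS mean of 449 ± 49.8 was above that of PS mice, 425 ± 24.8 (SD, n = 4 each).

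The same contrast after DEX compares 8 other mice, with no library in common with the 8 compared with saline. The estimate of spread was shared over all 24 libraries, so the calls of the 2 contrasts are not fully independent. The contrast after DEX gave 20 rises (0.142%) and 8 falls (0.0568%), 28 genes or 0.199%, where DESeq2 called 225 (1.60%). A limma fit of only the groups compared called 0. Of the 213 genes called with saline 12 were called with DEX in the same direction, 11 higher and 1 lower. That number of 28 was 13 without control saline 107, 8 without DEX control 108, 254 without DEX control 112, 3 without DEX control 122, 128 without AS saline 44, 6 without DEX PS 6, 3 without DEX PS 34, 202 without DEX PS 56, 106 without DEX AS 60 and 46 without DEX AS 72. Of the 213, 171 had the same sign with DEX, against 56.1% of all genes, and 71 of them had an unadjusted p under 0.05. For the 65 protein-coding rises the median log2 fold change was 0.33 with saline and 0.11 with DEX, and for the 83 falls -0.28 and -0.06. For the 19 higher pseudogenes it was 0.64 and 0.61, with 18 of 19 above 0, and for the 27 lower ones -2.33 and -0.58, with 23 of 27 below 0.

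Of the 12 genes called with both injections 9 were pseudogenes, among them Gm13577, Gm6204, Gm6793, Gm9800 and Gm10095. Gm9800 averaged 131 ± 27.8 in control and 216 ± 32.3 in PS mice with DEX (log2 fold change 0.73, adjusted p = 0.0517). The one fall was in Trp53inp2, an autophagy factor, which read 4557, 4241, 4495 and 4119.5 in the controls and 3418, 3825, 3507 and 3776 in the PS mice with saline (-0.26, SE 0.05, adjusted p = 0.0129) and averaged 4432 ± 209 and 3756 ± 136 with DEX (-0.24, adjusted p = 0.0731). Gm14703, a noncoding transcript whose exons overlap those of Syp on the opposite strand, rose from 21.4 ± 6.32 to 68.7 ± 19.6 with saline and from 12.2 ± 4.94 to 61.3 ± 28.9 with DEX (SD, n = 4). The third gene that is no pseudogene, Eapp, rose with both and is named after its values were seen.

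Other genes gave smaller or no differences after DEX. For Bicra the log2 fold change was -0.22 (adjusted p = 0.186), for Proser1 -0.22 and for Ppard -0.17, while for Ccl28 it was -0.04, for Limk1 0.08, for Ache 0.00 and for Vip -0.09. The difference between the saline and the DEX contrast was tested as an interaction, and no gene was called by limma or edgeR (1404 genes or 9.98% at an unadjusted p under 0.05, 23 or 0.164% called by DESeq2, and 2 or 0.0142% by limma after GC correction), so none of these differences between injections passed the test.

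**Figure D5:**
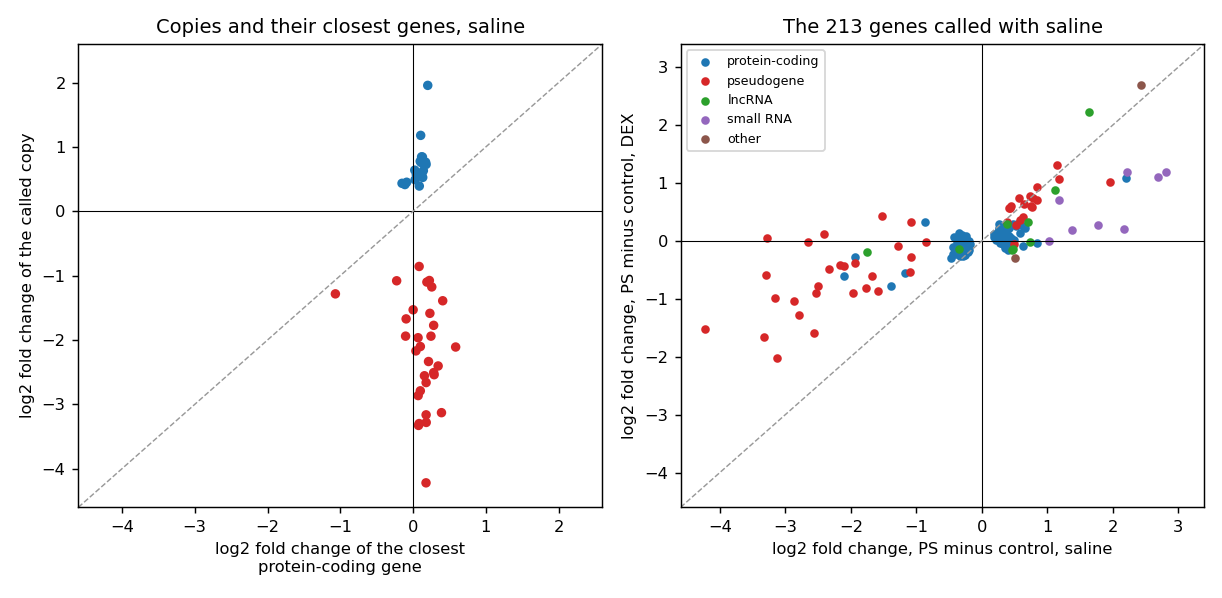
Left, log2 fold change of each called copy (vertical axis) against that of its closest protein-coding gene (horizontal axis) with saline, and right, log2 fold change of PS over control with saline against that with DEX in other mice for the 213 called genes, coloured by kind, with a dashed line of equal change. All but 1 of the sources lie near 0 while the copies reach down to -4.22, and higher pseudogenes lie near the line of equal change.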

How the data were processed

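PFC libraries were poly(A)-selected, strand-specific and sequenced in pairs. Per the labels, the authors trimmed reads with fastp 0.20.1, aligned them to mm10 with HISAT2 2.2.1, counted them with featureCounts of Subread 2.0 over GENCODE vM22 and normalized with DESeq2 1.36.0. The strand setting of the counting was not given in the sources used here. The deposited table holds a signal for each of 14074 genes, reads divided by size factors, and 100% of the values came out as whole reads within 0.01, which gave the depths. With 1 added, log2 values of all 24 libraries (6 groups of 4) were fitted with limma 3.58.1 in R 4.3.3 and adjusted by Benjamini-Hochberg, with calls under 0.1. edgeR 4.0.16 and DESeq2 1.42.0 were run on the recovered reads as alternatives, and the fits were tested on simulated data. A library score is the mean log2 difference of its genes from the control mean. Named were the 12 largest rises and falls among called genes without overlap and with a mean of at least 100 (no pseudogenes or small RNAs), the 3 largest rises and falls of all, up to 4 called members of each list, or the 2 most abundant where none was called, up to 6 genes each way called with both injections, and Fkbp5 and Tsc22d3. The genes, lists and rules were chosen with earlier results of these data known. Gene models and overlaps came from GENCODE vM21. P-values measure the spread between mice. Replicates differed by more than sampling noise (chi-square per gene of 5.57 to 54.3 over 12 pairs). Some genes that the rule names are not reported here.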

Additional observations from a re-analysis of the deposited data

Results flagged for a closer look

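In groups of 4 mice, 11 of 226 groups checked held 1 mouse far from the other 3 by Dixon's test, and chance flags about 1 group in 20. Olfactory bulb markers gave 3 of them: Pcp4l1 read 4856 in control 117 and 2027 in PS 2, and Calb2 read 2758 in control 117, where the other controls read 242 to 309. Control 117 was also apart in Egr3 (3515), H3f3a (3018) and Pcdhgc5 (3341). Control 106 was low in Snhg11 (42120) and Mrpl3 (1624). Fkbp5 read 888 in control 109. Among the PS mice, Syn1 read 24595 in PS 68, above the other 3 and still below every control, and Stat2 read 752 in PS 28.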

How the results depend on the processing

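Of the repeats of the 4 counts of calls, 102 stayed within 1.5 times the value reported and 46 did not. For PS against control with saline, DESeq2 called 431 genes (175 higher, 256 lower), a fit of only the groups compared 523, library size as a covariate 134, GC correction 105, PS 2 and 62 left out 23, PS 2 and control 117 left out 40, and single libraries left out 57 to 348. The share of calls that were higher was 47.4%, 13% without PS 2 and 62 and 36.9% without control 109. Against AS mice, DESeq2 gave 11, GC and length correction 2 and single libraries left out 0 to 5 (5 without AS saline 44, 1 without DEX PS 34). With DEX the count of 28 became 6 with a mean of at least 100, 225 with DESeq2, 0 with only the groups compared, 10 with library size, 6 with edgeR on thinned reads, 11 without PS 2 and 62, 17 without PS 2 and control 117, 105 with GC correction, 487 with GC and length correction, and 3 to 254 with single libraries left out. The interaction gave 9 with a pseudocount of 8, 4 with quantile normalization, 23 with DESeq2, 1 with only the groups compared, 2 with GC correction, 7 with GC and length correction and 0 to 3 with single libraries left out (1 without control saline 106, 2 without DEX control 112 or DEX AS 38, 3 without DEX PS 56). GC and length correction gave 258 with saline. Of the repeats of list medians 1637 stayed within the spread between libraries and 26 did not, among lists with several calls those of small GTPase regulators (-0.046 with GC and length correction), rRNA-linked genes (0.74 without PS 2 and 62) and ribosomal protein pseudogenes (0.35 with a mean of at least 100, 0.093 with at least 10 reads in every library). No called value changed sign. Rn7sk passed the threshold with DESeq2 only (2.17, adjusted p = 0.0953). The causes were not tested. Low counts limit the copies: 913 genes had under 10 reads in some library. No paired analysis was possible because mouse numbers do not recur between groups.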

Other observations

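All 8 called small RNA genes were higher in PS mice, but most of these calls depended on PS 2. Without PS 2, 56 of the 213 calls were kept, 23 of them protein-coding genes and 31 pseudogenes. Without PS 2 and PS 62, 23 were kept, 7 and 15 of these kinds. With DEX 7 of the 8 had the same sign, 1 of them at an unadjusted p under 0.05 (limma). Besides Gm24187 and Gm24270 they were Gm23935, the mitochondrial transfer RNAs mt-Tp and mt-Te, Mir374b, Gm25982 and Gm25112, named after their values were seen. mt-Tp averaged 62.1 in controls and 130 in PS mice (log2 fold change 1.03, adjusted p = 0.0318 by limma), and mt-Te 11.2 and 29.5 (1.37, adjusted p = 0.0185). Gm25112 was at 0 in all controls.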
